A study of Mus musculus with 15 samples.

Results

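Mouse myotubes given an adenovirus for PGC-1a1 were compared directly with myotubes given an adenovirus for PGC-1a2. The 3 arrays titled PGC-1a1 and the 3 titled PGC-1a2 are 6 of the 15 arrays of the series, and all 23332 transcript clusters on them were compared. A transcript cluster groups the probes that belong to the same gene or locus. Its value is a log2 signal, so a difference of 1 is a 2-fold difference. In every group, primary mouse myoblasts, the precursor cells of muscle, had been grown to near confluence and switched to differentiation medium. At 48 h of differentiation they were infected (multiplicity of infection 100). Fresh medium followed 12 h after infection and RNA was harvested about 60 h after it. The PGC-1a1 virus made GFP and isoform 1 of PGC-1a, and the PGC-1a2 virus made GFP and isoform 2, each protein from its own promoter. The 3 GFP arrays, with GFP alone, serve here as a reference. The isoforms were forced from viral vectors in cells that also keep their own Ppargc1a gene. The labels give no strain, sex or age of the mice and do not say whether the arrays of a group are separate cultures. The p-values therefore measure the spread between these arrays, which may be technical.

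PGC-1a is a transcriptional coactivator. It binds no DNA itself but docks on transcription factors such as the estrogen-related receptors, the PPARs and NRF1, and it is known for switching on genes of mitochondria, fat oxidation and vessel growth in muscle. PGC-1a1 is the long form. PGC-1a2 is a shorter form made from an upstream alternative promoter with alternative splicing. A cluster pools the probes of a gene, so differences in exon use are not resolved here.

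The arrays had medians between 5.476 and 5.659 log2, and 3 arrays per group limit the precision. Arrays of the same isoform correlated at 0.9899 to 0.9929 across clusters. On the first principal component of all 15 arrays, which held 24.7% of the variance, the PGC-1a1 arrays scored 8.0, 17.0 and 18.5, and the PGC-1a2 arrays -22.9, -28.8 and -23.3. GFP replicate 2 stood apart on the second component (15.5%), at 40.9 against -14.3 and -7.0 for the other GFP arrays. PGC-1a1 replicate 1 also stood off its group there, at -24 against 1.6 and 6.7. Counts over all clusters are therefore also given without these arrays. Replicate 1 was the lowest array of its group on the second component in GFP and PGC-1a1. The same held in PGC-1a3 (-22.4) and PGC-1a4 (-20.8), but not in PGC-1a2 (9.4). What the arrays numbered 1 share was not tested. Of 13 skeletal muscle markers measured, none lay near background, taken as a group mean below the lower quartile of each array in that group. Their summed linear signal was 21544 to 22287 in PGC-1a1 arrays and 21334 to 22403 in PGC-1a2 arrays. In GFP arrays it was higher, at 23068 to 24371. RNA of other cell types was looked for with 6 marker lists. The smooth muscle and pericyte list had the highest sums, 5922 to 5967 in PGC-1a1 arrays and 6096 to 6258 in PGC-1a2 arrays, without overlap. Of its 10 markers 3 passed the test between the isoforms. Which cells this signal came from was not tested. That list, the adipocyte list and the Schwann and neural list are also given under other observations. Of 10 fibroblast markers 0 passed the test between the isoforms and 5 were near background, and the summed signal was 323 to 386 in PGC-1a1 arrays and 368 to 378 in PGC-1a2 arrays. Of 10 endothelial markers 0 passed and 2 were near background, with summed signals of 212 to 235 in PGC-1a1 arrays and 223 to 225 in PGC-1a2 arrays. Of 9 macrophage markers 2 were lower in PGC-1a1 (Mrc1 and Itgam), and 2 were near background, with sums of 207 to 244 in PGC-1a1 arrays and 236 to 244 in PGC-1a2 arrays. In bulk RNA, fewer cells of a type and less RNA per cell cannot be told apart.

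Ppargc1a, the gene that encodes PGC-1a, was read first as a check of the labels. Its signal was 12.55, 12.60 and 12.67 log2 in the PGC-1a1 arrays, 8.90, 8.88 and 8.85 in the PGC-1a2 arrays and 8.88, 8.12 and 8.58 in the GFP arrays. The PGC-1a1 arrays lay far above the others, and the PGC-1a2 arrays overlapped the GFP arrays. The difference between PGC-1a1 and PGC-1a2 was 3.73 ± 0.16 (log2 difference ± SE from limma, n = 3 per group, adjusted p = 7.2e-08), or 13.3-fold. PGC-1a2 differed from GFP by 0.35 ± 0.16 (adjusted p = 0.22), which did not pass. The sources used here do not say which exons the probes of this cluster cover, so the values do not tell how much of either isoform was made, and the isoforms are not shown to have been compared at equal dose.

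The direct comparison called 4488 of 23332 clusters at a Benjamini-Hochberg adjusted p under 0.05 (19.2%; 3644 without PGC-1a1 replicate 1), 2388 higher in PGC-1a1 (10.2%) and 2100 lower (9.00%). Of these, 287 differed by 2-fold or more (1.23% of all clusters), 148 higher (0.634%) and 139 lower (0.596%). The 3 PGC-1a1 and 3 PGC-1a2 values did not overlap in 8415 clusters (36.1%), among them 2379 of the 2388 called higher and 2089 of the 2100 called lower. With each array centred on its median, the split was 2375 higher and 1306 lower, so the share of calls that were higher was 64.5% with centring and 53.2% without. The median difference over all clusters was 0.006 log2. Of 11575 clusters above the median signal 3902 were called, and of 11757 below it 586. The same fit called 1596 clusters for PGC-1a1 against GFP (6.84%; 4.44% higher and 2.40% lower; 1490 without GFP replicate 2) and 2177 for PGC-1a2 against GFP (9.33%; 4.56% higher and 4.77% lower; 2122 without it). These last 2 comparisons share the GFP arrays, and below their values for each gene are set side by side as a description.

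**Figure D1:**
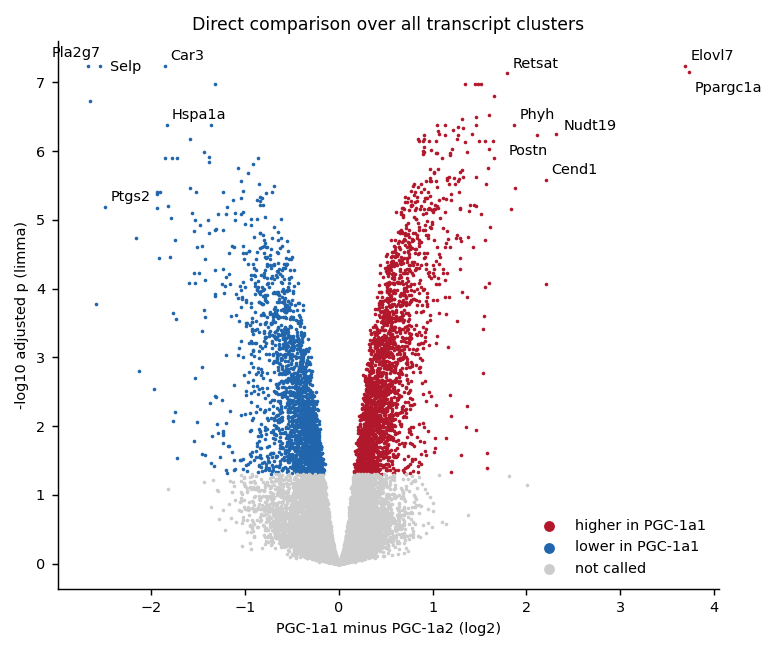
Each point is 1 of 23332 transcript clusters, with the log2 difference PGC-1a1 minus PGC-1a2 on the x axis and -log10 of the limma adjusted p on the y axis. Red points are the 2388 clusters called higher in PGC-1a1, blue points the 2100 called lower and grey points the rest; Ppargc1a and Elovl7 lie far to the right, at 3.73 and 3.69, and Pla2g7 and Selp farthest to the left among the labelled genes, at -2.68 and -2.55.

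After Ppargc1a itself, the largest rise of a named gene was in Elovl7, which encodes an elongase of long-chain fatty acids. It read 8.82, 8.74 and 8.89 log2 in PGC-1a1 arrays, 5.06, 5.23 and 5.08 in PGC-1a2 arrays and 5.03, 4.60 and 5.12 in GFP arrays. The PGC-1a1 arrays stood alone and the PGC-1a2 arrays overlapped the GFP arrays. The difference was 3.69 ± 0.15 (adjusted p = 5.7e-08), or 12.9-fold. Nudt19, a peroxisomal hydrolase of coenzyme A, followed with 9.06, 8.84 and 8.85 in PGC-1a1 arrays and 6.52, 6.63 and 6.65 in PGC-1a2 arrays, a difference of 2.32 ± 0.13 (adjusted p = 5.6e-07). Its GFP arrays, at 7.34, 6.92 and 7.03, fell between the isoforms. Cend1, a gene known for cell cycle exit of neurons, read 7.17, 7.35 and 7.52 in PGC-1a1 arrays and 5.00, 5.18 and 5.23 in PGC-1a2 arrays (difference 2.21 ± 0.16, adjusted p = 2.6e-06). Hpdl, a dioxygenase-like mitochondrial protein, rose by 2.21 ± 0.26, and the kinase gene Sgk3 by 1.88 ± 0.14.

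In several of the largest rises the GFP mean lay between those of the 2 isoforms. Postn, the matrix protein periostin, read 8.98, 8.89 and 8.88 log2 in PGC-1a1 arrays, 6.56, 6.85 and 6.99 in PGC-1a2 arrays and 8.71, 8.32 and 8.53 in GFP arrays. Here the PGC-1a2 arrays were the ones apart: PGC-1a1 minus GFP was 0.39 (adjusted p = 0.085) and PGC-1a2 minus GFP was -1.72 (adjusted p = 2.1e-05). Ostn, the peptide hormone osteocrin or musclin, read 7.59, 7.21 and 7.26 in PGC-1a1 arrays and 5.37, 5.63 and 5.55 in PGC-1a2 arrays, a difference of 1.84 ± 0.15 (adjusted p = 6.9e-06). Against GFP it was 0.70 higher in PGC-1a1 (adjusted p = 0.016) and 1.13 lower in PGC-1a2 (log2 difference -1.13, adjusted p = 0.00098). Phyh (peroxisomal breakdown of branched-chain fatty acids), Retsat (saturation of retinol), Trmt2b (methylation of mitochondrial RNA), Oxnad1 and Fastkd1 rose by 1.60 to 1.86, and in each PGC-1a1 was called higher and PGC-1a2 lower than GFP. Pln, phospholamban, the inhibitor of the slow-type calcium pump, read 10.02, 9.82 and 9.89 in PGC-1a1 arrays and 8.82, 8.20 and 7.90 in PGC-1a2 arrays. Its PGC-1a2 arrays were widely spread, and the difference was 1.61 ± 0.19 (adjusted p = 8.4e-05). Pipox, a peroxisomal oxidase, rose by 1.61 ± 0.15, with a PGC-1a2 level near background.

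In several of the largest falls, PGC-1a2 was called above GFP and PGC-1a1 was not called against GFP. Pla2g7, which encodes the secreted phospholipase that breaks down platelet-activating factor, read 4.08, 4.17 and 4.18 log2 in PGC-1a1 arrays, 6.68, 7.10 and 6.68 in PGC-1a2 arrays and 4.17, 4.18 and 4.28 in GFP arrays. The difference was -2.68 ± 0.10 (adjusted p = 5.7e-08), 6.39-fold. Selp, the adhesion receptor P-selectin, read 4.29, 4.21 and 4.46 in PGC-1a1 arrays, 6.93, 6.85 and 6.83 in PGC-1a2 arrays and 4.50, 4.76 and 4.52 in GFP arrays, and its difference was -2.55 ± 0.10 (adjusted p = 5.7e-08). Of the 10 endothelial markers, a list that does not hold Selp, 0 passed and 2 were near background. Which cells the Selp signal came from was not tested. Scd1, the stearoyl-CoA desaturase, was at 5.82, 5.44 and 5.34 in PGC-1a1 arrays and 7.68, 7.49 and 7.25 in PGC-1a2 arrays (difference -1.94 ± 0.16, adjusted p = 6.6e-06). Angptl4, a secreted inhibitor of lipoprotein lipase, differed by -1.91 ± 0.20, Palmd by -2.16 ± 0.21, and Tnfrsf12a, the receptor of the cytokine TWEAK, by -1.77 ± 0.12. For these 6 genes PGC-1a2 was called higher than GFP and PGC-1a1 minus GFP did not pass (adjusted p between 0.14 and 0.98).

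Some of the other falls differed in how the GFP arrays lay. Ptgs2, the inducible cyclooxygenase that starts prostaglandin synthesis, read 6.68, 6.19 and 6.36 log2 in PGC-1a1 arrays, 8.52, 9.06 and 9.10 in PGC-1a2 arrays and 8.35, 7.62 and 8.19 in GFP arrays. It was 5.61-fold higher in PGC-1a2 than in PGC-1a1 (difference -2.49 ± 0.21, adjusted p = 6.4e-06). PGC-1a1 lay 1.65 below GFP (log2 difference -1.65, adjusted p = 0.00043) and PGC-1a2 lay 0.84 above (adjusted p = 0.024). Car3, the muscle carbonic anhydrase, read 10.24, 10.20 and 10.33 in PGC-1a1 arrays and 12.11, 12.21 and 12.02 in PGC-1a2 arrays, with GFP between at 10.90, 10.79 and 10.76. Its difference was -1.86 ± 0.07 (adjusted p = 5.7e-08). Renbp, Krt19 and Neto2 showed the same order, PGC-1a1 called below and PGC-1a2 above GFP, with differences between the isoforms of -1.91, -1.82 and -1.79. Stap1, Gpm6a and B3galt5 fell by 1.94, 1.80 and 1.85 on the log2 scale, and the first 2 of them were near background in PGC-1a1 arrays. In each of them, as in Pla2g7, PGC-1a2 was called above GFP. PGC-1a1 was not called against GFP for them (adjusted p = 0.33, 0.39 and 0.14).

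**Figure D2:**
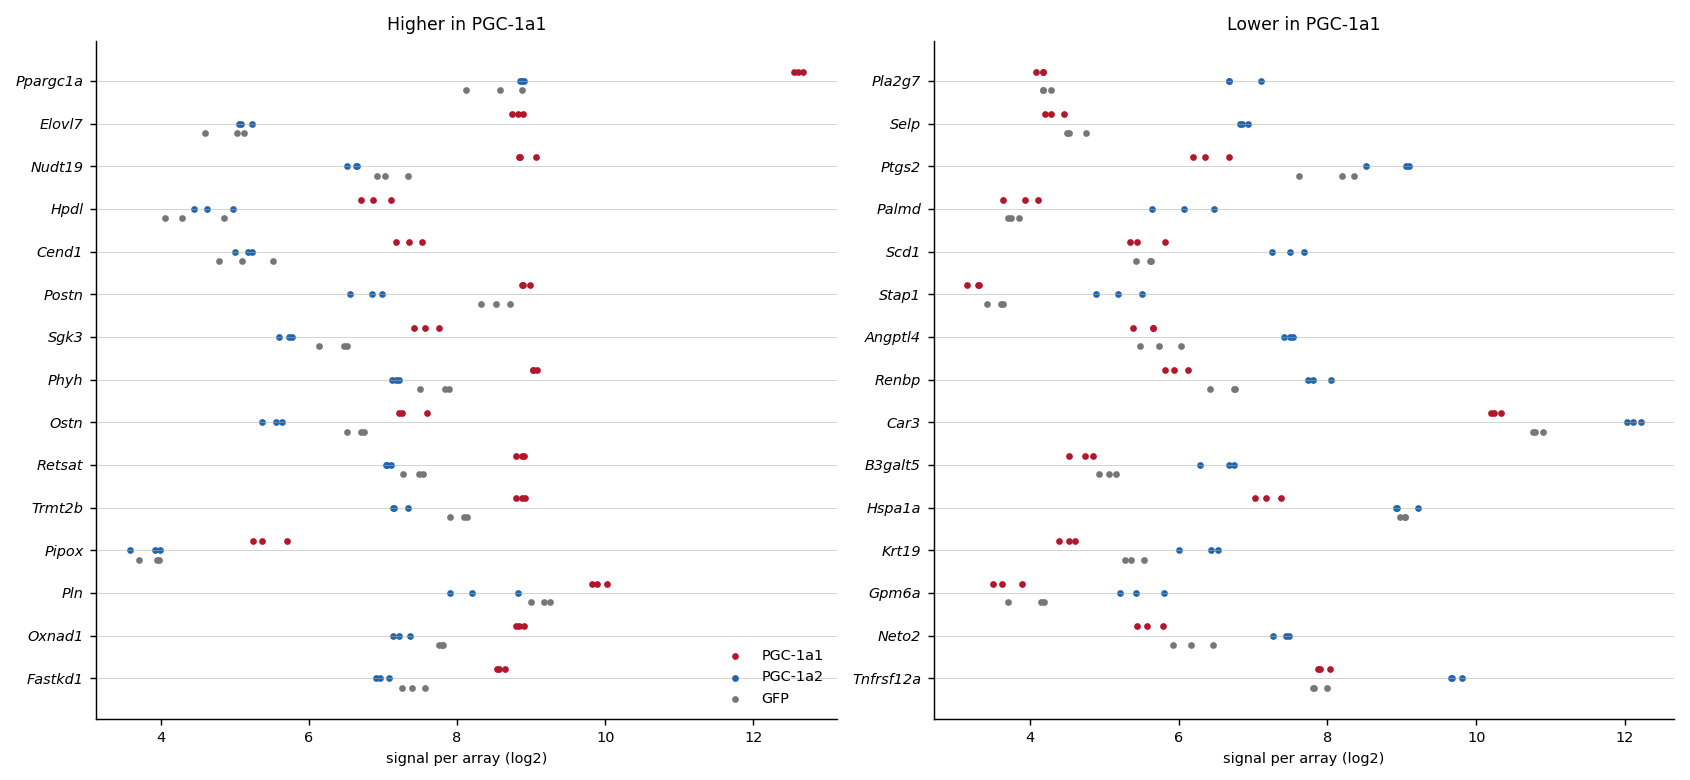
Log2 signal (x axis) of the 15 largest rises (left) and the 15 largest falls (right), 1 row per gene and 1 point per array, with PGC-1a1 in red, PGC-1a2 in blue and GFP in grey. Red and blue points do not overlap in any row; in the Postn row the grey points lie beside the red ones, and in the Elovl7 row beside the blue ones.

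Genes of mitochondria were among the gene lists with the largest shares called higher in PGC-1a1. The lists and their members were chosen with earlier results of these data known, so the shares of all lists describe them and do not test them. For reading the counts that follow, 25.3% of the 14860 named genes were called in this comparison, 13.8% higher and 11.5% lower, with a median difference of 0.02 log2. These shares include genes of low signal, which were called less often. Of all clusters, 586 of 11757 were called below the median signal and 3902 of 11575 above it. Lists of well-expressed genes can therefore exceed 25.3% for that reason alone. All 18 measured genes of the TCA cycle, which oxidises acetyl-CoA, were called higher, with differences between 0.27 (Mdh2) and 1.51 (Idh3a) and a median of 0.71. Idh3a, the catalytic subunit of the NAD-dependent isocitrate dehydrogenase, read 10.91, 10.90 and 10.94 log2 in PGC-1a1 arrays, 9.54, 9.34 and 9.33 in PGC-1a2 arrays and 9.98, 9.88 and 9.93 in GFP arrays. The GFP arrays lay between the isoforms without overlap, and the difference was 1.51 ± 0.07 (adjusted p = 1.1e-07). Ogdh of the oxoglutarate dehydrogenase rose by 1.06 ± 0.06 and the fumarase gene Fh1 by 1.03 ± 0.08. Against GFP, 17 of the 18 were called higher in PGC-1a1 and 0 lower (6.20% and 2.91% over all named genes), and in PGC-1a2 0 were called higher and 4 lower (6.35% and 6.35%).

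Pyruvate enters the cycle through the pyruvate dehydrogenase complex. Of 10 measured genes of this complex and its regulators, 8 were called higher and 0 lower (median 0.57). Dlat, the acetyltransferase core, read 9.47, 9.49 and 9.50 log2 in PGC-1a1 arrays and 8.55, 8.55 and 8.62 in PGC-1a2 arrays, a difference of 0.91 ± 0.06 (adjusted p = 8.8e-07). Pdk2, a kinase that inactivates the complex, rose by 0.99 ± 0.08. Its relative Pdk4, which was read at 8.27, 8.01 and 8.30 in PGC-1a1 arrays and at 8.50, 8.37 and 8.33 in PGC-1a2 arrays, did not pass between the isoforms (-0.21 ± 0.13, adjusted p = 0.36), and both isoforms were called above GFP for it, PGC-1a1 by 0.51 and PGC-1a2 by 0.71.

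Of 51 measured subunits and assembly factors of the respiratory chain, 37 were called higher in PGC-1a1 and 0 lower, and 50 of the 51 had a positive difference (median 0.51). Ndufa8 of complex I read 11.05, 11.09 and 11.13 log2 in PGC-1a1 arrays and 10.29, 10.31 and 10.36 in PGC-1a2 arrays (difference 0.76 ± 0.06, adjusted p = 3.8e-06). Sdhd, the membrane anchor of complex II, read 11.15, 10.94 and 11.00 in PGC-1a1 arrays and 10.26, 10.17 and 10.09 in PGC-1a2 arrays (difference 0.86 ± 0.08, adjusted p = 1.2e-05). Both rose by less than 2-fold, and in both the groups were well apart. Of 66 mitochondrial ribosomal proteins, which build the machinery that translates the mitochondrial genome, 43 were called higher and 0 lower (median 0.36). Mrps25 rose by 1.04 ± 0.09 and Mrpl34 by 0.91 ± 0.07. Mrpl34 read 9.56, 9.47 and 9.52 in PGC-1a2 arrays and 9.53, 9.40 and 9.48 in GFP arrays, ranges that overlapped. Of 38 mitochondrial carriers 21 were called higher and 0 lower (median 0.35), among them Slc25a12, the aspartate and glutamate carrier, by 0.91 ± 0.05. Of 16 genes of mitochondrial fusion, fission and removal, 11 were called higher and 0 lower (median 0.41); leaving out PGC-1a1 replicate 1 left 7. The fusion protein gene Mfn1 rose by 1.29 ± 0.09, and the fission gene Mtfp1 rose by 1.29 ± 0.11.

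Fat and amino acids feed carbon into the TCA cycle. Of 20 measured genes of fatty acid oxidation, 16 were called higher and 0 lower (median 0.43). Etfdh, which passes electrons from acyl-CoA dehydrogenases to the respiratory chain, read 9.64, 9.58 and 9.52 log2 in PGC-1a1 arrays, 8.38, 8.36 and 8.28 in PGC-1a2 arrays and 8.65, 8.42 and 8.59 in GFP arrays, and rose by 1.24 ± 0.09 (adjusted p = 3e-06). Acadm, the medium-chain dehydrogenase, rose by 0.90 ± 0.06. Ucp3, the uncoupling protein of muscle mitochondria, was at 5.22, 5.40 and 5.31 in PGC-1a1 arrays and 5.56, 5.10 and 5.33 in PGC-1a2 arrays, with overlapping groups and no call (-0.02 ± 0.10, adjusted p = 0.94). Of 21 genes of branched-chain amino acid breakdown, 16 were called higher and 0 lower, and all 21 differences were positive (median 0.59). Bckdhb, a subunit of the committed step, read 8.63, 8.39 and 8.50 in PGC-1a1 arrays, 7.19, 7.04 and 6.90 in PGC-1a2 arrays and 7.76, 7.77 and 7.71 in GFP arrays. This was a difference of 1.46 ± 0.10 (adjusted p = 2.4e-06) with GFP in between. Of these 21 genes, 9 were called higher and 0 lower in PGC-1a1 against GFP, and 0 higher and 11 lower in PGC-1a2 against GFP. Of 8 aminotransferase and shuttle genes for aspartate and kynurenine, 7 were called higher and 0 lower. Got1, the cytosolic aspartate aminotransferase, rose by 0.91 ± 0.06 and Kyat1, which turns kynurenine to kynurenic acid, by 1.44 ± 0.12.

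Peroxisomes shorten very long and branched fatty acids. Of 28 measured peroxisome genes, 15 were called higher and 1 lower (median 0.33). Besides Nudt19, Phyh and Pipox, Nudt7 rose by 1.17 ± 0.08. Cat, the peroxisomal catalase that destroys hydrogen peroxide, read 10.59, 10.56 and 10.70 log2 in PGC-1a1 arrays and 11.01, 11.03 and 11.19 in PGC-1a2 arrays, and was the member called lower (-0.46 ± 0.06, adjusted p = 0.00029). Sod2, the mitochondrial superoxide dismutase, read 11.78, 11.71 and 11.76 in PGC-1a1 arrays and 10.87, 10.77 and 10.78 in PGC-1a2 arrays, a difference of 0.94 ± 0.08 (adjusted p = 1e-05). Prdx3 and Txn2, both mitochondrial, rose by 0.86 ± 0.07 and 0.60 ± 0.06, and the glutaredoxin gene Glrx rose by 1.57 ± 0.12. In all, 8 of 20 superoxide and peroxide defence genes were called higher and 1 lower.

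Of 18 measured genes of cholesterol synthesis, 15 were called higher in PGC-1a1 and 1 lower, with a median of 0.66. Msmo1, a sterol oxidase of the late pathway, read 10.21, 10.08 and 10.07 log2 in PGC-1a1 arrays, 8.59, 8.67 and 8.65 in PGC-1a2 arrays and 9.83, 9.70 and 9.80 in GFP arrays. The 3 groups did not overlap, with GFP in between, and the difference between isoforms was 1.48 ± 0.07 (adjusted p = 1.1e-07). PGC-1a1 minus GFP was 0.34 (adjusted p = 0.0082) and PGC-1a2 minus GFP was -1.14 (adjusted p = 2.7e-06). Nsdhl, which also removes methyl groups from sterols, rose by 1.32 ± 0.09, Hmgcs1, which makes HMG-CoA, by 0.78 ± 0.08, and Sc5d by 0.75 ± 0.10. Against GFP, 5 of the 18 were called higher and 0 lower in PGC-1a1, and 0 higher and 9 lower in PGC-1a2. The gene called lower, Srebf2, encodes the transcription factor that drives this pathway. Srebf2 read 10.55, 10.43 and 10.45 in PGC-1a1 arrays and 10.89, 10.76 and 10.55 in PGC-1a2 arrays. The groups met at 10.55 after rounding and did not overlap before it. Its call (-0.26 ± 0.08, adjusted p = 0.044) was lost under 8 of 16 alternatives, among them median centring (adjusted p = 0.17), the 2 groups alone (adjusted p = 0.15) and leaving out any of PGC-1a1 replicates 1 to 3 or PGC-1a2 replicate 1 or 2.

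Fatty acid synthesis had no common direction, with 4 of 16 measured genes called higher and 4 lower. Elovl6, another elongase, rose by 1.31 ± 0.16, while Scd1 fell as given above. Its relative Scd2 went the other way and read 10.51, 10.21 and 10.27 log2 in PGC-1a1 arrays and 9.66, 9.37 and 9.26 in PGC-1a2 arrays (difference 0.90 ± 0.12, adjusted p = 0.00021). Of 18 lipid uptake and storage genes 6 were called higher and 4 lower, the lower ones including Lpl, the lipoprotein lipase (-0.59 ± 0.07), and Plin2, a coat protein of lipid droplets (-0.43 ± 0.06). Of 19 glucose uptake and glycolysis genes 6 were called higher and 1 lower. Hk1, a hexokinase, rose by 0.73 ± 0.07, and Phka1, the regulatory subunit of muscle phosphorylase kinase, read 8.62, 8.49 and 8.51 in PGC-1a1 arrays and 9.35, 9.26 and 9.23 in PGC-1a2 arrays (-0.74 ± 0.08, adjusted p = 3.2e-05).

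**Figure D3:**
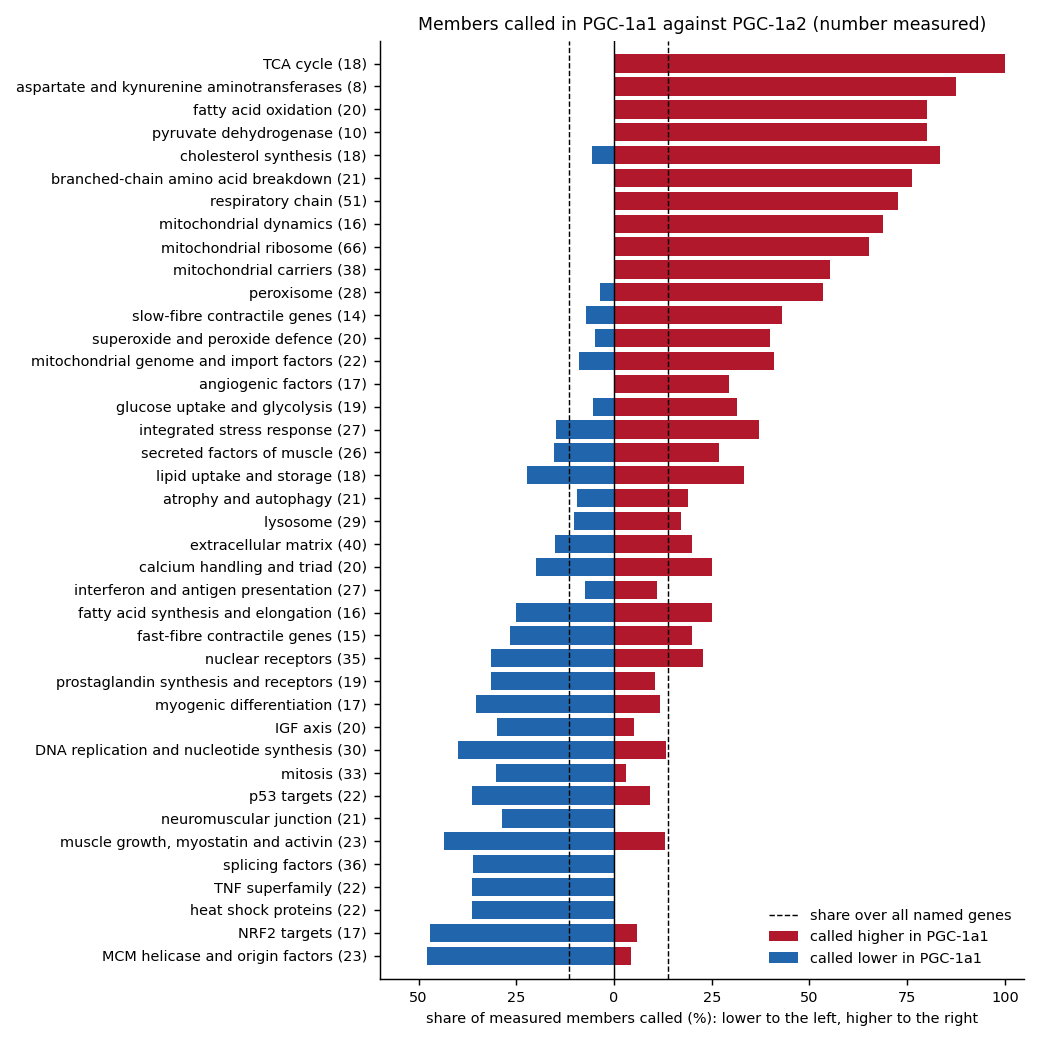
Share of the measured members of 40 gene lists (y axis, number measured in parentheses) that were called in PGC-1a1 against PGC-1a2, in percent (x axis), with members called higher to the right in red and members called lower to the left in blue. Dashed lines mark the shares over all named genes, 13.8% higher and 11.5% lower; the mitochondrial, amino acid and cholesterol lists reach far to the right, and the MCM and NRF2 lists farthest to the left.

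Esrra, the estrogen-related receptor alpha through which PGC-1a acts on mitochondrial genes, read 7.93, 7.94 and 8.11 log2 in PGC-1a1 arrays, 6.65, 6.48 and 6.48 in PGC-1a2 arrays and 7.02, 7.03 and 7.01 in GFP arrays. GFP lay between without overlap, and the difference was 1.46 ± 0.08 (adjusted p = 4.1e-07), 2.75-fold. Its relative Esrrg read 6.19, 6.05 and 5.88 in PGC-1a1 arrays, 5.26, 5.03 and 5.02 in PGC-1a2 arrays and 5.98, 5.95 and 6.15 in GFP arrays. Here PGC-1a1 and GFP overlapped, and the difference between isoforms was 0.94 ± 0.13 (adjusted p = 0.00031). Rora, a receptor of the clock and of lipid genes, was lower in PGC-1a1 (-0.83 ± 0.11). Over 35 nuclear receptors and cofactors, 8 were called higher and 11 lower. These counts moved with the setting: 4 to 5 higher with the 2 groups alone or leaving out PGC-1a1 replicate 1 or 3 or PGC-1a2 replicate 2, and 6 or 7 lower with median centring or without PGC-1a1 replicate 2. The other members of the coactivator family were lower in PGC-1a1: Ppargc1b by -0.40 ± 0.06 (adjusted p = 0.00028) and Pprc1 by -0.64 ± 0.09 (adjusted p = 0.00048). They stand in a list of 22 mitochondrial genome and import factors, of which 9 were called higher, with the import motor subunit Timm44 at 0.96 ± 0.06, and these 2 lower.

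Promoter letters were read from RefSeq (GRCm38.p6), 250 bases before to 50 after each start, on both strands, because estrogen-related receptors, NRF1, SREBP and E2F are the textbook factors of the groups above and below. Of the 14860 named genes, 11869 had such a sequence. The estrogen-related receptor element, searched as TNAAGGTCA, stood in 13 of 1691 genes called higher (0.769%), in 8 of 1379 called lower (0.58%), in 123 of the 11869 (1.04%) and in 387 of all 27025 genes with a promoter (1.43%). The palindromic NRF1 element stood in 44 of 1691 genes called higher (2.6%), 27 of 1379 called lower (1.96%), 203 of the 11869 (1.71%) and 290 of all 27025 (1.07%). A match is a description of letters in this window and not a site. The promoters shown are those of Sdhd, with an element of the receptor type on the opposite strand at 36, of Etfdh, with an NRF1 element at -128, and of Hmgcs1, with a receptor element at -246 and a sterol element, TCACCCCAC, at -137. Matches are in capitals, and positions count bases from the gene start to the first base of the match. They lie at chr9:50603800-50604099 (minus strand), chr3:79628718-79629017 (minus strand) and chr13:119690101-119690400 (plus strand).
Sdhd: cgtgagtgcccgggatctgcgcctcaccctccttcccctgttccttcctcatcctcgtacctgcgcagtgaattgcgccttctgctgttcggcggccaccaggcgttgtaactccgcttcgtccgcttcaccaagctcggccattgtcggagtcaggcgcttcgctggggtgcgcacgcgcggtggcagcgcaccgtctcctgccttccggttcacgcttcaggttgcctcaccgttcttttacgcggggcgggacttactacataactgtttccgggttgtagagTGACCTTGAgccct
Etfdh: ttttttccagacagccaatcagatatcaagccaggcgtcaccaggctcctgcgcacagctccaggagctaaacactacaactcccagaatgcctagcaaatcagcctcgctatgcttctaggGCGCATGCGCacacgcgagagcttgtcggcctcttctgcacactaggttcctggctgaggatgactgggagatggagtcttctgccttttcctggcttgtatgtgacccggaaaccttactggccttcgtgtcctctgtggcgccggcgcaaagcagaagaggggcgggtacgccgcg
Hmgcs1: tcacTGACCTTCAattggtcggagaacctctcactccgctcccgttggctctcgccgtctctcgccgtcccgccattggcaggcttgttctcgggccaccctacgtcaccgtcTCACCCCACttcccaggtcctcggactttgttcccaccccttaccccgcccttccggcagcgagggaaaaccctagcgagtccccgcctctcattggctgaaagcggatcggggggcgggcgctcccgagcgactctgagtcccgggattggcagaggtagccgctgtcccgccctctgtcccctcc
Of 14 cholesterol synthesis genes with a promoter, only Hmgcs1 held TCACCCCAC in the window. It stood in 82 of the 11869 (0.691%) and in 166 of all 27025 genes (0.614%). Of 41 respiratory chain genes 2 held the receptor element.

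Lower in PGC-1a1 were genes of DNA replication licensing, which load the helicase onto origins before S phase. Of 23 measured genes of the MCM helicase and origin factors, 11 were called lower and 1 higher (median -0.37). Mcm3 read 6.26, 6.08 and 6.07 log2 in PGC-1a1 arrays, 7.64, 7.70 and 7.83 in PGC-1a2 arrays and 6.75, 6.50 and 6.66 in GFP arrays. The 3 groups did not overlap, and the difference between isoforms was -1.59 ± 0.10 (adjusted p = 6.7e-07), 3.01-fold. Mcm6 read 6.37, 6.13 and 6.01 in PGC-1a1 arrays and 7.53, 7.90 and 7.81 in PGC-1a2 arrays (-1.58 ± 0.12, adjusted p = 3.4e-06). The other subunits of the ring, Mcm4, Mcm2, Mcm5 and Mcm7, differed by -1.29, -0.82, -0.80 and -0.63 and were all called lower. Mcm3 was 0.50 below GFP in PGC-1a1 (log2 difference -0.50, adjusted p = 0.007) and 1.09 above GFP in PGC-1a2 (adjusted p = 8e-05). Orc3, a subunit of the origin recognition complex, was the member called higher (0.37 ± 0.07). Over the list, 3 genes were called lower and 0 higher in PGC-1a1 against GFP, and 9 higher and 1 lower in PGC-1a2 against GFP.

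Either of the E2F forms TTTGGCGC and TTTCCCGC stood in the promoter window of 9 of the 18 genes of this list that had one. It stood in 326 of the 11869 named genes with a promoter (2.75%) and in 486 of all 27025 genes (1.8%). Among genes called lower it was 55 of 1379 (3.99%), and among genes called higher 50 of 1691 (2.96%). The promoters of the 2 members with the widest difference are shown, at chr1:20820263-20820562 for Mcm3 and chr1:128359656-128359955 for Mcm6, both on the minus strand of GRCm38.p6 and with the E2F letters in capitals.
Mcm3: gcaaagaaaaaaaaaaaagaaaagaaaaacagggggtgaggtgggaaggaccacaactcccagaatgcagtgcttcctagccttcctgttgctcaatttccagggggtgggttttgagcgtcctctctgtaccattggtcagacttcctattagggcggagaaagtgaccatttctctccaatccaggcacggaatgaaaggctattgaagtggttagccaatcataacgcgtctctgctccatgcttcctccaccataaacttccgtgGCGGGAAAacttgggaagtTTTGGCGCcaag
Mcm6: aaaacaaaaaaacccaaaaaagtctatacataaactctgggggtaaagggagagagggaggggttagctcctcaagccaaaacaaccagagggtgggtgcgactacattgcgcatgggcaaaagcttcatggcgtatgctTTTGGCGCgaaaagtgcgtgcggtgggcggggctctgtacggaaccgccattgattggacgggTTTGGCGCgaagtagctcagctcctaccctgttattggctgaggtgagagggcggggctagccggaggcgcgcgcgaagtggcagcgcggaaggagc

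Counts for later steps of the cell cycle depended on single arrays. Of 30 other genes of DNA replication and nucleotide synthesis 12 were called lower and 4 higher (median -0.25), but 3 were lower with median centring or when replicate 2 of either isoform was left out, 4 when PGC-1a1 replicate 3 was left out and 5 when PGC-1a2 replicate 3 was. Pole2, a subunit of the leading-strand polymerase, read 4.95, 4.58 and 4.69 log2 in PGC-1a1 arrays and 5.61, 5.75 and 5.70 in PGC-1a2 arrays (-0.94 ± 0.13, adjusted p = 0.00034). Rrm1, the large subunit of ribonucleotide reductase, went the other way, with 10.26, 10.24 and 10.30 in PGC-1a1 arrays and 9.81, 9.84 and 9.78 in PGC-1a2 arrays (0.46 ± 0.07, adjusted p = 0.00053). Of 33 mitosis genes 10 were called lower and 1 higher (median -0.32), with 4 to 6 lower under median centring or without PGC-1a1 replicate 2 or 3 or PGC-1a2 replicate 2 or 3, and 21 or 22 with array weights or the spread of each array as a covariate. Ccna2, cyclin A2, differed by -0.66 ± 0.13 and Ccnb2, cyclin B2, by -0.42 ± 0.08. The median of the 33 genes was -0.16 for PGC-1a1 minus GFP and 0.17 for PGC-1a2 minus GFP. Of 22 p53 targets 8 were called lower (5 with median centring) and 2 higher. Plk3, a stress-induced kinase, read 7.16, 6.96 and 7.06 in PGC-1a1 arrays and 7.84, 7.98 and 8.01 in PGC-1a2 arrays (-0.88 ± 0.09, adjusted p = 3.8e-05).

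Heat shock proteins are chaperones that refold damaged proteins. Of 22 measured, 8 were called lower and 0 higher (median -0.18). Hspa1a, the inducible HSP70, read 7.37, 7.17 and 7.03 log2 in PGC-1a1 arrays, 8.92, 8.94 and 9.22 in PGC-1a2 arrays and 9.04, 8.98 and 9.04 in GFP arrays. PGC-1a2 and GFP overlapped, and PGC-1a1 was apart by -1.84 ± 0.10 from PGC-1a2 (adjusted p = 4.1e-07). Its partners Hsph1, a nucleotide exchange factor, and the J-domain proteins Dnaja1 and Dnajb1 differed by -1.05 ± 0.08, -1.24 ± 0.15 and -0.72 ± 0.11. Hspa5, the chaperone of the endoplasmic reticulum, was not called (0.12 ± 0.06, adjusted p = 0.18). Against GFP, 9 of the 22 were called lower and 0 higher in PGC-1a1, and 1 lower and 0 higher in PGC-1a2.

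Of 17 measured targets of the antioxidant factor NRF2, 8 were called lower in PGC-1a1 and 1 higher (median -0.20). The count of 8 was 5 with median centring or with the 2 groups alone. Nqo1, a quinone reductase, read 5.83, 5.96 and 5.85 log2 in PGC-1a1 arrays, 6.86, 7.48 and 7.59 in PGC-1a2 arrays and 7.63, 7.13 and 7.64 in GFP arrays. PGC-1a1 was the group apart, by -1.43 ± 0.20 from PGC-1a2 (adjusted p = 0.00026). Hmox1, heme oxygenase, and Pgd of the pentose phosphate pathway differed by -0.85 ± 0.11 and -0.70 ± 0.08, and PGC-1a2 was called above GFP for both. Slc7a11, the cystine importer, read 7.85, 7.69 and 7.74 in PGC-1a1 arrays, 9.05, 9.67 and 9.77 in PGC-1a2 arrays and 9.23, 8.96 and 9.04 in GFP arrays (-1.74 ± 0.24, adjusted p = 0.00028).

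Slc7a11 is also a target of the integrated stress response, the program that ATF4 drives when translation is held back, and in that list it went against the majority. Of 27 measured genes, 10 were called higher in PGC-1a1 and 4 lower. Fgf21, a secreted stress hormone, read 8.96, 8.80 and 8.66 log2 in PGC-1a1 arrays, 7.24, 7.44 and 7.04 in PGC-1a2 arrays and 8.87, 8.73 and 8.95 in GFP arrays. Only the PGC-1a2 arrays lay apart, and the difference was 1.56 ± 0.19 (adjusted p = 9.3e-05). The transfer RNA synthetase genes Gars and Wars rose by 0.56 ± 0.06 and 0.59 ± 0.07. Against GFP, 3 of the 27 were called higher and 2 lower in PGC-1a1, and 1 higher and 12 lower in PGC-1a2.

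**Figure D4:**
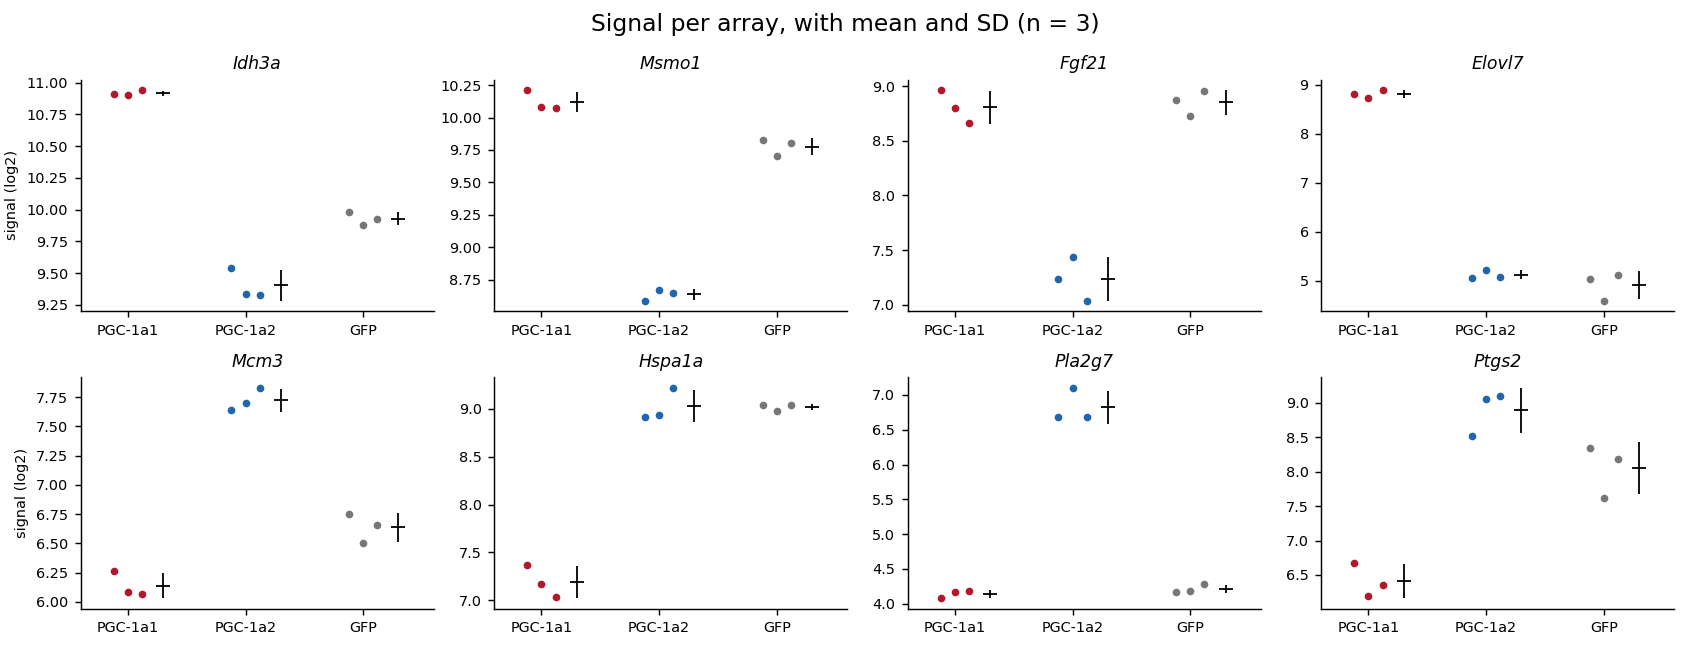
Log2 signal (y axis) of 8 genes in each PGC-1a1, PGC-1a2 and GFP array, with 1 point per array and a black mark for the mean with its SD (n = 3); each panel has its own scale. For Idh3a the GFP arrays lie between the isoforms, for Fgf21 the PGC-1a2 arrays lie below both other groups, for Hspa1a the PGC-1a1 arrays do, and for Pla2g7 the PGC-1a2 arrays lie above both.

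Myostatin and activin signals restrain muscle growth. Of 23 measured genes in a list of muscle growth, myostatin and activin genes, 10 were called lower in PGC-1a1 and 3 higher (median -0.19). Mstn, myostatin, the secreted inhibitor of muscle growth, read 8.13, 8.12 and 8.22 log2 in PGC-1a1 arrays, 9.16, 9.13 and 8.72 in PGC-1a2 arrays and 8.25, 8.20 and 8.50 in GFP arrays (-0.85 ± 0.14, adjusted p = 0.001). Fst, follistatin, which binds and blocks myostatin and activin, was lower as well, at 9.62, 9.45 and 9.54 in PGC-1a1 arrays and 10.64, 10.41 and 10.38 in PGC-1a2 arrays (-0.94 ± 0.08, adjusted p = 9.8e-06). Smad7, the inhibitory SMAD, differed by -0.84 ± 0.07. Fstl1 and the adhesion receptor Adgrg1 went the other way and rose by 0.92 ± 0.08 and 0.86 ± 0.08. Of 22 members of the TNF superfamily 8 were called lower and 0 higher, among them Tnfrsf12a, the death receptor Tnfrsf10b (-0.84 ± 0.08) and the ligand Tnfsf15 (-1.10 ± 0.15). Of 19 genes in a list of prostaglandin synthesis and receptors, which also holds Pla2g7 among those called lower, 6 were called lower and 2 higher. Ptges2, a synthase bound to membranes, rose by 0.95 ± 0.08 while Ptgs2 and Ptgds fell, Ptgds by 0.58 on the log2 scale.

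Contractile genes were called in both directions. Of 15 fast-fibre genes 3 were called higher and 4 lower, and of 14 slow-fibre genes 6 higher and 1 lower. Myl2, the slow and cardiac myosin light chain, read 8.62, 8.51 and 8.53 log2 in PGC-1a1 arrays, 7.29, 7.05 and 6.67 in PGC-1a2 arrays and 8.22, 7.29 and 7.85 in GFP arrays (1.55 ± 0.21, adjusted p = 0.00025). GFP replicate 2, the array that stood apart, was the one that touched the PGC-1a2 range. Sln, sarcolipin, an inhibitor of the calcium pump, was the slow-fibre gene called lower, with 5.71, 5.55 and 5.45 in PGC-1a1 arrays and 7.09, 7.01 and 6.78 in PGC-1a2 arrays (-1.39 ± 0.12, adjusted p = 1e-05). Atp2a1, the fast-type calcium pump, differed by -0.79 ± 0.08 and Tnnc2, fast troponin C, by -0.37 ± 0.06. Mb, myoglobin, read 10.34, 10.22 and 10.21 in PGC-1a1 arrays and 9.79, 9.75 and 9.87 in PGC-1a2 arrays, and rose by 0.45 ± 0.09 (adjusted p = 0.0044). Of 17 myogenic differentiation genes 6 were called lower (3 with median centring) and 2 higher: Myf5 and Myf6, factors of early and late myogenesis, differed by -0.54 ± 0.07 and -0.50 ± 0.08, and Pax7, the marker of satellite cells, by 0.35 ± 0.06.

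Angiogenic factors are secreted proteins that draw vessels to muscle. Of 17 angiogenic factors 5 were called higher in PGC-1a1 and 0 lower. Vegfa, the main vessel growth factor, read 9.92, 10.11 and 10.00 log2 in PGC-1a1 arrays, 9.36, 9.45 and 9.51 in PGC-1a2 arrays and 9.68, 9.76 and 9.64 in GFP arrays. GFP lay between without overlap (difference between isoforms 0.58 ± 0.07, adjusted p = 6.9e-05). Vegfb rose by 0.75 ± 0.07 and Fgf1 by 0.47 ± 0.08. Of 26 secreted factors 7 were called higher and 4 lower, with Postn, Ostn and Fgf21 on the first side and Angptl4 and Mstn on the other. Of 40 extracellular matrix genes 8 were called higher (13 with the spread of each array as a covariate) and 6 lower. The 6 became 2 or 3 with median centring, with the 2 groups alone, or without PGC-1a1 replicate 2 or 3 or PGC-1a2 replicate 2. Fn1, fibronectin, read 10.17, 10.10 and 10.13 in PGC-1a1 arrays, 8.99, 9.40 and 9.43 in PGC-1a2 arrays and 10.25, 10.19 and 10.21 in GFP arrays (0.86 ± 0.11, adjusted p = 0.00011). Of the 10 fibroblast markers 0 passed, but 5 were near background in each group, so the list could show little. Whether other cells contributed to the matrix genes was not tested.

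**Figure D5:**
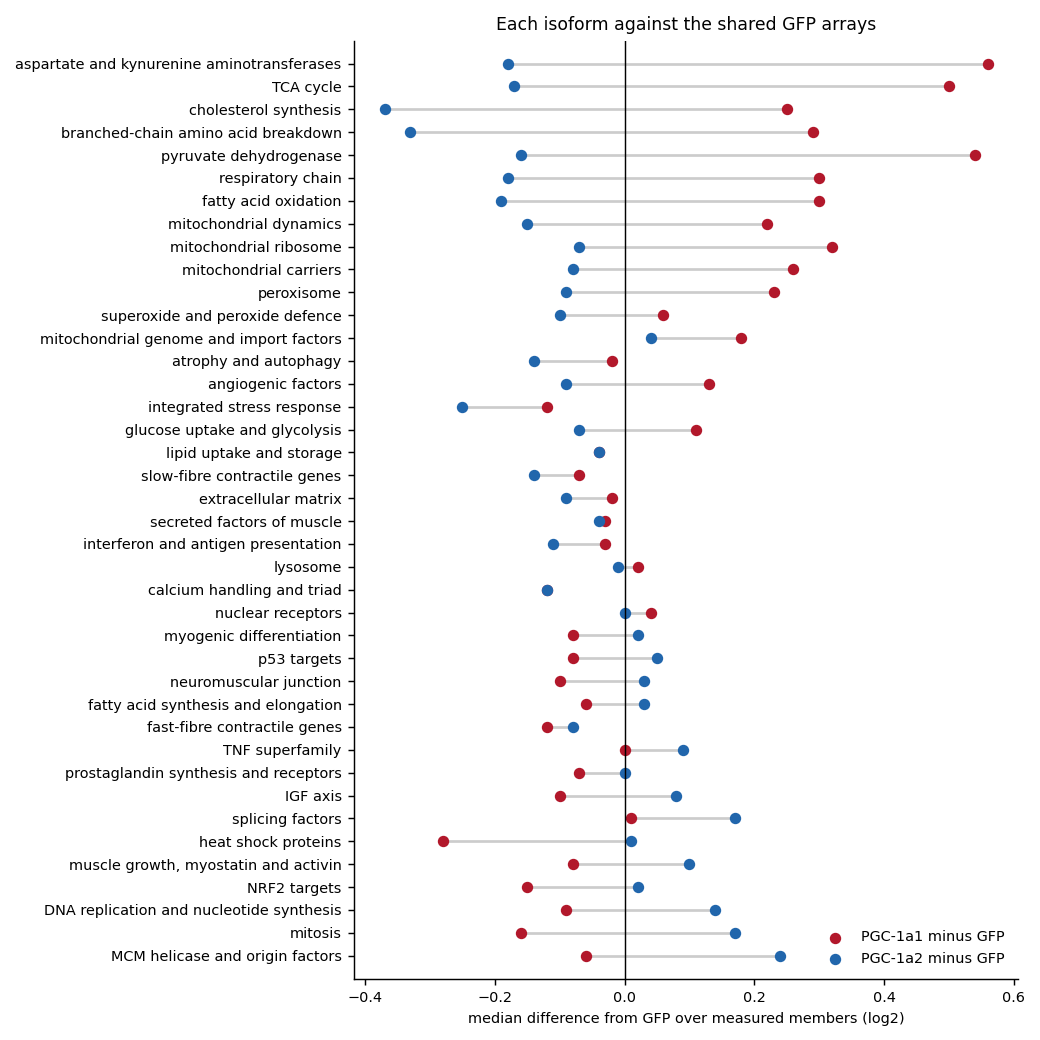
Median log2 difference from GFP (x axis) over the measured members of each of 40 gene lists (y axis), for PGC-1a1 in red and PGC-1a2 in blue, joined by a line and ordered by the median difference between the isoforms. The TCA cycle median is 0.50 for PGC-1a1 and -0.17 for PGC-1a2, and the MCM median is -0.06 for PGC-1a1 and 0.24 for PGC-1a2; both series share the GFP arrays, and where a row shows only a blue point the red one lies under it.

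Of the 6 called genes with the highest mean signal, Mdh2, the mitochondrial malate dehydrogenase, read 12.16, 12.12 and 12.21 log2 in PGC-1a1 arrays and 11.90, 11.87 and 11.90 in PGC-1a2 arrays (0.27 ± 0.05, adjusted p = 0.0022). Tmem47, a membrane protein of cell junctions, was lower (-0.28 ± 0.06, adjusted p = 0.0035). For Tpi1, Ndufs7, Cyb5r3 and Des the differences were between -0.17 and 0.27, and each of these 4 calls was lost under at least 1 alternative setting.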

How the data were processed

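Total RNA was labelled as biotinylated sense-strand cDNA, per the labels' protocols, and measured on Affymetrix mouse exon arrays. The authors deposited 1 log2 value for each transcript cluster and array, and these were used unchanged. The submitters' processing notes name Partek. How background was corrected, how arrays were normalized and which build was used was not given in the sources used here.

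Arrays were grouped by title. For PGC-1a4 the source name says isoform 1; the title was followed, and that group enters the pooled spread and the principal components, and no contrast. Of 23332 clusters 14996 carried exactly 1 symbol, 1019 several and 7317 none, from the platform annotation; 14941 of those with 1 symbol matched RefSeq by Entrez ID. Where a gene had several clusters, the one of highest mean stood for it.

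All 15 arrays were fitted with limma 3.58.1 in R 4.3.3 (5 group means, lmFit and eBayes, 10 residual degrees of freedom), with 3 contrasts, 2-sided, Benjamini-Hochberg adjusted over all clusters and called at an adjusted p under 0.05. SEs are moderated, n = 3 per group. With 3 arrays on each side, the smallest p of an exact permutation test is 0.1, so calls rest on the pooled variance model. Named genes were Ppargc1a, the 15 largest rises and falls among called, non-overlapping clusters with 1 symbol that are not uncharacterised or repeated loci, the 6 called genes of highest signal, and from each of 40 gene lists and 7 marker lists up to 4 members of smallest p and 2 against the majority; Mcm5 and Mcm7 were added to complete the helicase. The members and lists were chosen with earlier results of these data known, and no list was tested as a set. The alternatives tried were median centring, quantile normalization, a filter on low signal (percentile 25 or 50), clusters with 1 symbol, the 2 groups alone, a robust variance trend, array weights, the replicate block, each array's interquartile range as a covariate, and leaving out each array. Same-numbered arrays were not taken as pairs: the deviations of PGC-1a1 and PGC-1a2 arrays of the same number correlated at -0.004 to 0.104. For GFP with PGC-1a1 the values were 0.32, 0.192 and -0.138. Over all groups 11 of 30 same-numbered pairs were over 0.1, with a range of -0.218 to 0.36.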

Additional observations from a re-analysis of the deposited data

How the results depend on the processing

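Over 16 alternatives the direct comparison called between 3393 and 6103 clusters, against 4488 as reported, and leaving out 1 of the 6 arrays gave 3393 to 3801. The calls lower in PGC-1a1 numbered 1306 with median centring. For PGC-1a1 against GFP (1596 as reported) the counts were 393 with the 2 groups alone, 2994 under array weights and 2430 when each array's interquartile range was a covariate, and 951 to 1490 leaving out 1 array, of which 951, 957 and 1052 leave out PGC-1a1 replicates 2, 3 and 1 in that order. For PGC-1a2 against GFP (2177 as reported) they were 1354 with median centring, 173 with the 2 groups alone, 3492 under array weights and 3350 when that covariate was added, and 1231 to 2122 leaving out 1 array, of which 1231 and 1304 leave out PGC-1a2 replicates 2 and 3, and 1340 leaves out GFP replicate 3. The fit of 2 groups alone has fewer arrays to estimate the spread. Under it the direct comparison called 3869 clusters, a smaller change than in either comparison with GFP. The calls against GFP given in the text use the spread pooled over all groups, including those outside the comparison. The cause of these shifts was not tested. Ppargc1a differed by 3.63 to 3.78 log2. The replicate block called 4533 clusters (2407 higher, 2126 lower), with Ppargc1a at 3.73 (adjusted p = 1e-06), and among the named genes it lost the calls of Cyb5r3, Des and Srebf2 (adjusted p = 0.061, 0.057 and 0.058). In the direct comparison, 132 of 140 genes named in the text kept their direction and their side of the threshold under every alternative that tested them. The exceptions were Adipoq, Cyb5r3, Des, Ndufs7, Pdk4, Srebf2, Tpi1 and Ucp3. Calls of single genes and of gene lists against GFP were not tried under the alternatives. How far those calls depend on the processing was therefore not tested. Ucp3, not called in any setting, was 0.03 with quantile normalization or median centring, 0.06 under array weights, 0.02 with the covariate, and -0.13 to 0.10 leaving out 1 array. All 16 lists with a median of at least 0.2 log2 either way between the isoforms kept its sign. The endothelial median could not be given under the filter at percentile 50. Clusters of low signal were called less often than clusters of high signal, and the 3 arrays per group set what could be called.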

Other observations

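Of 21 measured genes of the nerve and muscle contact, 6 were called lower in PGC-1a1 (28.57%) and 0 higher, with a median of -0.06. Over all named genes 11.5% were called lower and 25.3% in all. Ache, the acetylcholinesterase that ends the nerve signal, read 4.48, 4.51 and 4.96 log2 in PGC-1a1 arrays, 6.19, 6.43 and 6.13 in PGC-1a2 arrays and 4.64, 5.18 and 4.42 in GFP arrays, and differed by -1.60 ± 0.19 (log2 difference ± SE, limma, adjusted p = 8.2e-05). Utrn, utrophin, differed by -0.44 ± 0.08 and the receptor gene Erbb2 by -0.41 ± 0.07. Of 20 genes of the IGF axis 6 were called lower and 1 higher. Igf1r, the receptor of insulin-like growth factor 1, read 8.17, 8.06 and 8.04 in PGC-1a1 arrays and 8.72, 8.77 and 8.72 in PGC-1a2 arrays (-0.65 ± 0.07, adjusted p = 5.7e-05), and Irs1, its adaptor, differed by -0.42 ± 0.06. The kinase gene Mtor was the member called higher (0.43 ± 0.05).

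Of 36 splicing factors 13 were called lower in PGC-1a1 and 0 higher, 5 with median centring and 8 without PGC-1a2 replicate 2. Ptbp3 differed by -0.40 ± 0.07, Sf1 by -0.29 ± 0.05 and Srsf2 by -0.35 ± 0.07, all under 1.5-fold. Against GFP, 1 of the 36 was called lower and 0 higher in PGC-1a1, and 0 lower and 11 higher in PGC-1a2. Of 29 lysosome genes 5 were called higher and 3 lower, shares near those over all named genes, with Ctsf, a cathepsin, at 0.81 ± 0.07. Of 27 interferon and antigen presentation genes 3 were called higher and 2 lower, 18.52% in all against 25.3% over all named genes. Isg20, an exonuclease induced by interferon, read 7.13, 7.00 and 6.86 in PGC-1a1 arrays and 8.11, 8.13 and 8.08 in PGC-1a2 arrays (-1.11 ± 0.10, adjusted p = 7.9e-06), and Psmb10, a subunit of the immunoproteasome, went the other way (0.72 ± 0.07). Of 20 calcium handling genes 5 were called higher and 4 lower. The 5 became 3 with quantile normalization, with the 2 groups alone, or leaving out any 1 of PGC-1a1 replicates 1 to 3 or PGC-1a2 replicate 2, and 2 leaving out PGC-1a2 replicate 3. Of 21 atrophy and autophagy genes 4 were called higher and 2 lower, 28.57% in all, which is near the share over all named genes. Markers of smooth muscle and pericytes included 2 called higher, Notch3 (0.83 ± 0.07) and Rgs5, and 1 lower, Abcc9, of 10 measured. Their summed linear signal was 5922 to 5967 in PGC-1a1 arrays and 6096 to 6258 in PGC-1a2 arrays, ranges that did not overlap. None of 7 Schwann and neural markers passed, and 1 of 8 adipocyte markers, Adipoq, was called lower at a level near background.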
